A study of Mus musculus with 20 samples.

Results

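The highest level of resistant potato starch (RPS) was set against the next lower level to see what the larger amount added in the proximal colon (PC). Of the 20 libraries of the series, 10 were compared, 5 from mice on 10% RPS and 5 from mice on 5% RPS, as their labels state. All were C57BL/6 mice, an inbred strain, that had been weaned at 3 to 4 weeks of age onto the Total Western Diet (TWD), a rodent feed with the nutrient intake typical of Americans, and had eaten it for 6 weeks. For the next 3 weeks the TWD held 5 or 10% raw potato starch, so both groups shared the diet, the strain, and a starch, and differed in its amount. The libraries were made from a whole segment of the gut wall, with no sorting of cells, so that fewer cells of a type and less RNA per cell cannot be told apart for any gene below.

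The part of RPS that resists digestion reaches the large bowel, where bacteria of the cecum and colon turn it into short-chain fatty acids, chiefly acetate, propionate, and butyrate. Butyrate is a main fuel of colonocytes, and the PC meets the products of fermentation first after the cecum. The epithelium of this region also carries an innate defence of antimicrobial lectins and interferon-stimulated genes, plasma cells below it secrete immunoglobulin A, and mesenteric fat attaches along the outside of the wall.

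The 10 libraries held 24246496 to 35083751 counts, and the mean total did not differ between the diets beyond the spread of mice (exact permutation test, two-sided, p = 0.405). The limit of detection, taken as 3 counts, came to 0.0855 to 0.124 CPM. Levels are given as normalised counts, in which each library was scaled by its DESeq2 size factor, and log2 fold changes as 10% over 5% RPS. Of the 15 markers of absorptive colonocytes 14 were in the table, of 18 goblet cell markers all 18, and of 12 markers of exocrine pancreas 1. Of the squared distances among the libraries 11.9% lay between the diets, where the permutation mean was 11.1% (exact permutation test over the 10 libraries, one-sided, p = 0.349), so the separation of the diets over all genes was not larger than the spread between mice. Replicate 1 of the 10% diet stood furthest from the others on the first principal component, at 18.6 where the other 9 libraries lay between −10.99 and 4.93.

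Few genes separated the 2 diets. With DESeq2, a gene was called changed if its adjusted p did not exceed 0.05 and its level differed at least 1.5-fold, and 4 of 12551 tested genes (0.0319%) met this, 3 higher (0.0239%) and 1 lower (0.00797%) at 10% RPS. The immunoglobulin kappa segment Igkv2-109 fell, while the kappa segment Igkv3-2, Bnip5, a gene of the BCL2-interacting protein family, and the adipocyte-derived protease Cfd rose. Without the fold threshold 7 genes (0.0558%) passed, the additional ones including Abhd3 and Rasgef1b. edgeR's quasi-likelihood test called 0 genes, with 542 of 12322 (4.4%) at an unadjusted p under 0.05, compared with 625 (4.98%) in DESeq2. The median log2 fold change of all tested genes was 0.0013.

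**Figure D1:**
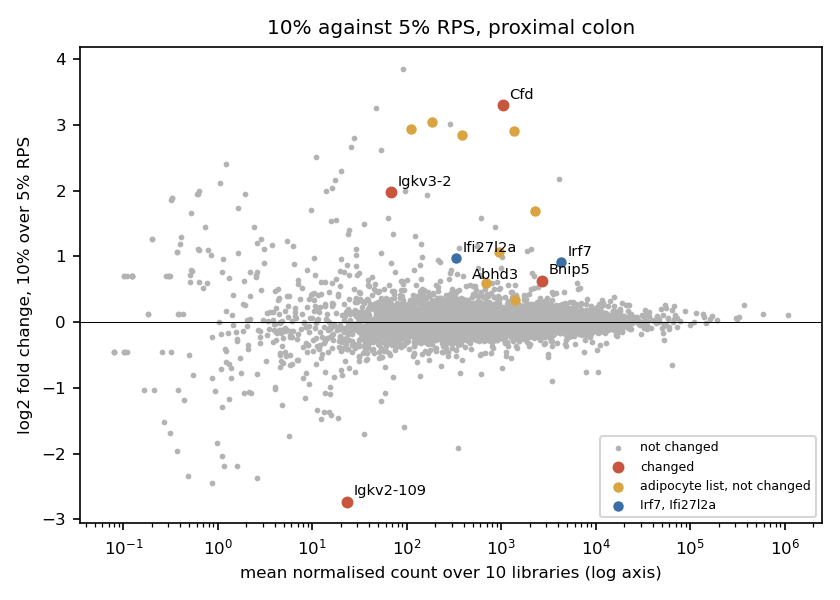
Log2 fold change of each tested gene at 10% over 5% RPS against its mean normalised count over the 10 libraries (log axis). The 4 changed genes are red, adipocyte markers that were not called are yellow, Irf7 and Ifi27l2a are blue, and 1 of the 4 changed genes, Igkv2-109, lies below 0.

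Both immunoglobulin genes are variable (V) segments of the kappa light chain locus. A B cell that matures joins 1 V segment to a joining segment, and its descendants carry the same choice, so the level of a segment in tissue RNA follows the plasma cell clones that are present. Igkv2-109 (ENSMUSG00000105606) lies at chr6:68279411-68280142 and Igkv3-2 (ENSMUSG00000095351) at chr6:70675433-70676051, both on the plus strand of GRCm39. The last 300 bases of each V exon are shown because reads of near-identical segments can be shared. Capitals mark bases inside 50-base windows, the length of a read, that also occur in the transcript of another gene, 152 bases in the first and 194 in the second. The first stretch is chr6:68279843-68280142 and the second chr6:70675752-70676051.
Igkv2-109: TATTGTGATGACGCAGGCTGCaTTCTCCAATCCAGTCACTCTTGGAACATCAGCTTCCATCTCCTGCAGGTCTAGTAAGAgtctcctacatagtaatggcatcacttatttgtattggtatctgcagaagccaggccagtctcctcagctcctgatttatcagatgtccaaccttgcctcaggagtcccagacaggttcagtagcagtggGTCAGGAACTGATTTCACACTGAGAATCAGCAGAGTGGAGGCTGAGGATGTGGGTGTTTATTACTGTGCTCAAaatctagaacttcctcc
Igkv3-2: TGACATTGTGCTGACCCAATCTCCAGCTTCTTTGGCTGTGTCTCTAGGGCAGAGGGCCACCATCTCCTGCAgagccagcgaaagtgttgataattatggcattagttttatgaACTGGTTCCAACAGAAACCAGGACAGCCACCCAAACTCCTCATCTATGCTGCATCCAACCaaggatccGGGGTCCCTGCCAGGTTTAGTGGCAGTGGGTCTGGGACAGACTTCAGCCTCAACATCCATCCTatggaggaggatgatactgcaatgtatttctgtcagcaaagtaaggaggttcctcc
The rest of each stretch, in lower case, is not in any such window.

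Igkv2-109 had 42.4, 56.1, 21.98, 27.5, and 56.2 normalised counts in the 5 libraries on 5% RPS and 3.29, 8.80, 4.89, 9.18, and 4.07 on 10% RPS. Every library on 10% RPS was below every library on 5% RPS, and its level fell by 2.73 on the log2 scale (SE 0.44, adjusted p = 5.7e-06). These levels rest on few reads, 21 to 55 per library on 5% RPS and 3 to 10 on 10% RPS. Its windows shared with other genes made up 20.6% of the total, all of them with the pseudogene Igkv2-116.

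Igkv3-2 ran the other way. It had 61.6, 11.2, 21.98, 15.5, and 26.4 normalised counts on 5% RPS and 65.9, 117.0, 201.5, 78.5, and 79.3 on 10% RPS, with no overlap between the diets although replicate 1 of each came close to the other. Its log2 fold change was 1.98 (SE 0.44, adjusted p = 0.0189). Of its windows 21.3% also occur elsewhere, the most in Igkv3-5, whose own values were 3.31 to 11.5 on 5% RPS and 0, 16.7, 19.5, 82.6, and 12.2 on 10% RPS (adjusted p = 0.701).

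Across the 102 V segments that were tested, 1 rose and 1 fell, 13 were higher and 5 lower at an unadjusted p under 0.05 (3.06% and 1.92% of all genes), and the median log2 fold change was 0.34. This list was drawn up after the values were seen. The spread between mice was wide. Igkv16-104 had 4.30 to 18.8 normalised counts on 5% RPS and 12.1, 7.92, 23.2, 634.4, and 168.8 on 10% RPS (log2 fold change 3.86, adjusted p = 0.207). Ighv1-81, a heavy chain segment, had 5.23 to 23.2 and 28.5, 56.3, 10.99, 280.5, and 80.3 (log2 fold change 2.62, adjusted p = 0.256). Both were highest in replicate 4 of the 10% diet. Igkv5-48 had 54.0 to 103.6 on 5% RPS and 18.7, 32.6, 14.7, 39.8, and 57.0 on 10% RPS, where 4 libraries were below the lowest of the other diet (log2 fold change −1.20, adjusted p = 0.207).

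The summed level of the V segments was 1542 to 4663 on 5% RPS and 2017, 2411, 3957, 7389, and 5933 on 10% RPS, so the diets overlapped. Plasma cell markers and immunoglobulin constant regions were tested as 13 genes, of which 0 were changed or past an unadjusted p of 0.05 and 12 had the higher mean on 10% RPS, with a median log2 fold change of 0.39. Ighg1, the constant region of IgG1, had 30.9 to 353.8 normalised counts on 5% RPS and 157.5 to 841.5 on 10% RPS (adjusted p = 0.9998). Xbp1, a transcription factor of secretory plasma cells, was the 1 member with the lower mean, and its means nearly coincided (log2 fold change −0.01). Of the B cell markers 4 and of the T cell markers 5 were in the table, among them Cd79a and Lck, and none of these 9 passed either threshold.

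Bnip5, at chr17:29115366-29134304 on the minus strand, had the most counts of the changed genes. It had 2029, 1939, 1831, 2578, and 2280 normalised counts on 5% RPS and 3690, 3684, 3351, 2546, and 3250 on 10% RPS. In 4 of 5 libraries on 10% RPS it exceeded every library on 5% RPS, and replicate 4 lay within their range. The mean rose from 2131 ± 299.7 to 3304 ± 467.3 (SD, n = 5 each). On the log2 scale this was 0.63 (SE 0.12, adjusted p = 0.00064).

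Abhd3, a hydrolase of phospholipids, had 316.0 to 375.8 normalised counts on 5% RPS and 419.6 to 567.9 on 10% RPS (log2 fold change 0.56, SE 0.10, adjusted p = 0.0002), without overlap and below the fold threshold. Rasgef1b, an exchange factor for small GTPases, had 778.9 to 1219 and 1172 to 1605 (log2 fold change 0.56, SE 0.13, adjusted p = 0.0371), and replicate 2 on 10% RPS lay inside the range of the 5% diet.

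**Figure D2:**
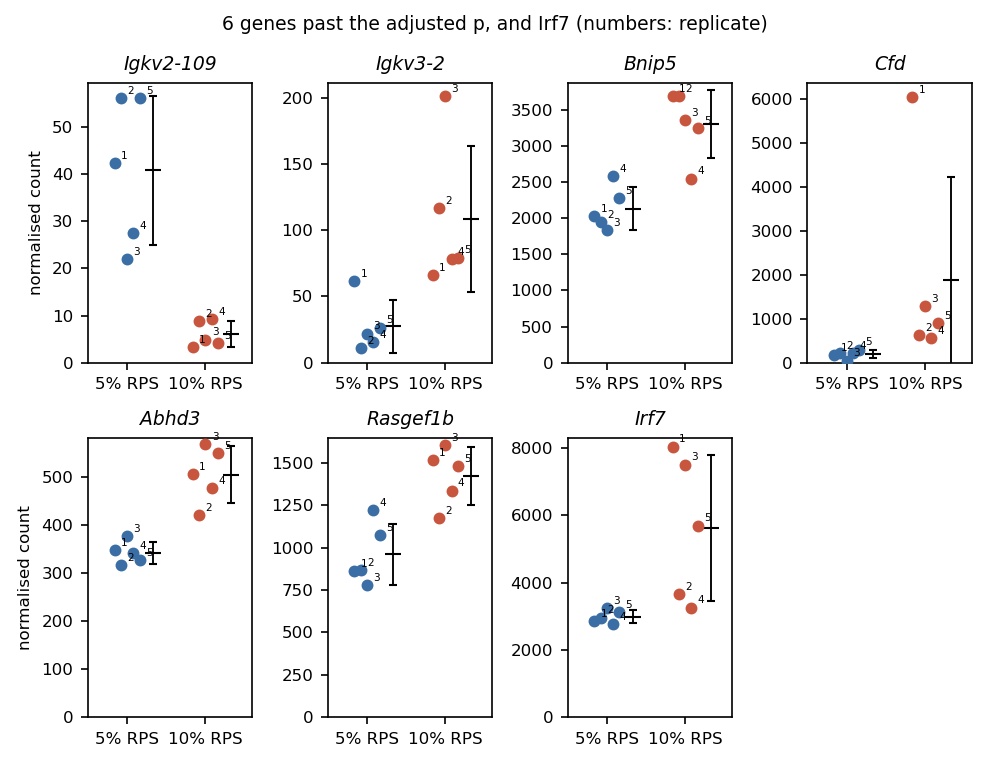
Normalised counts of 6 genes past the adjusted p and of Irf7 in each library, with the replicate number beside each point and the mean and SD (n = 5) as a bar, cut at 0. Igkv2-109 is lower in all 5 libraries on 10% RPS, and Cfd and Irf7 spread far more on 10% RPS than on 5% RPS.

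The calls differed in how far they depended on single libraries. Igkv2-109 was called when any 1 of the 10 libraries was left out, Bnip5 in 9 of 10 (not without replicate 3 on 5% RPS), and Cfd and Igkv3-2 in 6 of 10. Cfd was lost without replicate 1, 2, or 3 on 5% RPS or replicate 3 on 10% RPS, and Igkv3-2 without replicate 2, 3, or 5 on 5% RPS or replicate 3 on 10% RPS. When the spread was estimated from all 20 libraries, the adjusted p values were 0.16 for Igkv2-109, 0.465 for Bnip5, 0.104 for Cfd, and 1.0 for Igkv3-2.

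Of the 41 gene lists plotted by their medians, that of adipocytes had the largest median difference. Adipocytes store triglyceride in droplets coated by perilipins, release hormones such as adiponectin and resistin, and secrete adipsin, the product of Cfd. Of the 9 adipocyte markers in the table, 1 rose (Cfd), 8 were higher on 10% RPS at an unadjusted p under 0.05 (3.06% of all genes), and 5 did not overlap between the diets (0.438% of all genes), with a median log2 fold change of 2.85. Cfd (chr10:79726668-79728496, plus strand) had 172.1, 224.3, 49.2, 213.2, and 297.5 normalised counts on 5% RPS and 6047, 622.9, 1296, 557.9, and 906.1 on 10% RPS. Its log2 fold change was 3.30 (SE 0.75, adjusted p = 0.0241).

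Adipoq, which encodes adiponectin, had 69.6, 171.3, 10.5, 104.0, and 110.2 normalised counts on 5% RPS and 2108, 310.5, 505.6, 189.7, and 254.2 on 10% RPS (log2 fold change 2.85, SE 0.82, adjusted p = 0.207). Plin1, the perilipin of the fat droplet, had 31.2, 57.1, 6.28, 49.0, and 54.0 and then 1057, 144.3, 216.2, 99.95, and 121.0 (log2 fold change 3.05, SE 0.79, adjusted p = 0.116). In both genes replicate 1 on 10% RPS was far above all others, replicate 3 on 5% RPS was the lowest, and no libraries of the 2 diets overlapped. Fabp4, a fatty acid binding protein, had 816.3 to 1423 on 5% RPS and 9524, 1972, 2714, 1500, and 1506 on 10% RPS (adjusted p = 0.354), and Car3, a carbonic anhydrase abundant in fat, had 86.9 to 646.3 and 7714, 1020, 1632, 768.0, and 1051 (adjusted p = 0.113). Resistin (Retn) had 4.19 to 45.9 and 40.8 to 658.7 (adjusted p = 0.211). Plin4, which is also made in muscle, was the marker that did not pass, at 875.9 to 1694 and 1026 to 2971 (log2 fold change 0.34, adjusted p = 0.9998).

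Genes outside the list showed the same libraries high, and were chosen after their values were seen. Cyp2e1 had 19.9 to 108.0 normalised counts on 5% RPS and 1685, 111.7, 348.1, 193.8, and 203.4 on 10% RPS (adjusted p = 0.138). Thrsp, a regulator of fat synthesis, had 49.9 to 83.6 and 711.4, 88.0, 230.8, 89.8, and 185.1 (adjusted p = 0.222), and Adrb3, the beta-adrenergic receptor of adipocytes, had 56.7 to 84.8 and 420.4, 101.2, 155.1, 97.9, and 91.5 (adjusted p = 0.211). Scd1, the desaturase that makes oleate, overlapped, at 975.7 to 1981 and 20290, 3466, 5234, 1537, and 2957 (adjusted p = 0.213).

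**Figure D3:**
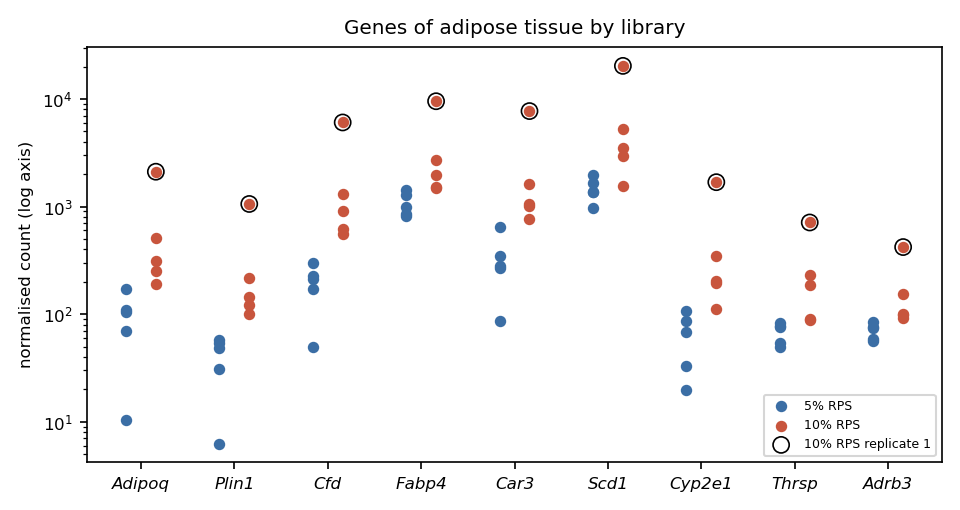
Normalised counts (log axis) of 9 genes of adipose tissue in the 5 libraries on 5% RPS (blue) and the 5 on 10% RPS (red), with replicate 1 of the 10% diet ringed. The ringed library is the highest for each gene, and Scd1 is the gene in which the diets overlap.

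The summed level of the adipocyte markers was 3475, 5713, 3125, 3809, and 4699 on 5% RPS and 34312, 6974, 10052, 5404, and 6624 on 10% RPS. Without replicate 1 on 10% RPS, the median log2 fold change of the list was 1.63, and Cfd, Plin1, and Fabp4 were called, among 7 genes in all. With the mean log2 level of the list, to which Cfd itself contributes, as a covariate, 0 of the 4 changed genes was called. That fit called 2 other genes, Gm10384 and Igkv3-5, both higher on 10% RPS. For Cfd that fit adjusts the gene in part for itself. The log2 fold changes of the 4 changed genes in that fit were −2.83 for Igkv2-109 (adjusted p = 0.0527), 2.32 for Igkv3-2 (adjusted p = 0.16), 0.42 for Bnip5 (adjusted p = 0.596), and 0.62 for Cfd (adjusted p = 0.43). That level was 6.48 to 8.46 on 5% RPS and 8.60 to 11.4 on 10% RPS, without overlap, so that starch and adipose RNA cannot be told apart in these libraries.

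The interferon pathway was examined through Irf7, a transcription factor that is itself induced by interferon and in turn switches on type I interferon genes. Irf7 (ENSMUSG00000025498, chr7:140842619-140846398, minus strand) had 2855, 2966, 3246, 2772, and 3131 normalised counts on 5% RPS and 8040, 3654, 7508, 3263, and 5697 on 10% RPS. All libraries on 10% RPS were above all on 5% RPS, replicates 2 and 4 by little and replicates 1, 3, and 5 by much. The mean was 2994 ± 194.8 at 5% and 5632 ± 2171 at 10% RPS (SD, n = 5 each), and the log2 fold change of 0.91 (SE 0.25) did not pass the test (adjusted p = 0.197). With the spread estimated from all 20 libraries Irf7 was the only gene called (adjusted p = 0.0337), and it was also called after a filter on low counts, with a smooth muscle covariate, with length and GC trends removed, and without replicate 2 or replicate 4 on 10% RPS. With the adipocyte covariate its log2 fold change was 0.42 (adjusted p = 0.754).

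Of the 57 interferon-stimulated genes tested, 0 were changed, 6 were higher and 0 lower at an unadjusted p under 0.05 (3.06% and 1.92% of all genes), 2 did not overlap and were higher (0.438% of all genes), and the median log2 fold change was 0.05. Ifi27l2a, which encodes a mitochondrial protein induced by type I interferon, had 231.3, 225.3, 250.2, 198.6, and 211.6 normalised counts on 5% RPS and 880.4, 267.4, 337.1, 296.8, and 414.9 on 10% RPS (log2 fold change 0.98, SE 0.28, adjusted p = 0.207). Its log2 fold change was 0.20 with the adipocyte covariate (adjusted p = 0.911). Its exons overlap those of Ifi27 on the opposite strand over 15.02% of their length, and Ifi27 itself had 1214 to 1538 and 1201 to 1721. The other 4 were Trim25, a ubiquitin ligase of RNA sensing (log2 fold change 0.26, adjusted p = 0.207), Lgals3bp, a secreted galectin ligand (0.31, adjusted p = 0.257), Oas3, a sensor of double-stranded RNA (0.66, adjusted p = 0.66), and Helz2, a nuclear helicase (0.20, adjusted p = 0.61).

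Ifit1, an antiviral RNA-binding protein, had 414.3 to 599.9 normalised counts on 5% RPS and 406.2 to 632.7 on 10% RPS (log2 fold change 0.08). Sensors, adaptors, and kinases upstream of Irf7 were tested as 16 genes with a median log2 fold change of 0.02, and 1, the kinase Chuk, was past an unadjusted p of 0.05. The 9 receptors of interferons and their kinases had a median of 0.06 and 0 past that threshold. Among 16 targets of interferon-gamma 2 were higher, Serpina3g and Ido1, and 1 lower, Batf2, at that threshold, where the shares of all genes were 3.06% and 1.92%. Of the 12 interferon genes listed, 0 were in the table. Of 12 plasmacytoid dendritic cell markers 7 were in the table, with a median of −0.07 and 0 past the threshold. Siglech, Ccr9, and Cox6a2 were not in the table. Of those that were, Klk1 is also on the goblet cell list and Spib on the B cell list, so this median cannot speak for these cells alone.

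Promoters were searched on both strands for the core of the interferon-stimulated response element, a pair of GAAA blocks with any 2 bases between them, in RefSeq promoters of GRCm38.p6 that span 250 bases before to 50 after the start. Of the 44 interferon-stimulated genes with an entry, 21 (47.7%) held a match, against 3.99% of all 27025 genes. For Irf7 there was no match in this window. The same held for Trim25 and Lgals3bp, and for Epsti1 and Uba7, which had lower means on 10% RPS (log2 fold change −0.13 and −0.20). Ifit1, whose level hardly differed, held 2, as did Bst2 (log2 fold change 0.18). The 200 bases before the start are shown for Irf7 and Ifit1, 5′ to 3′, with matches in capitals, to let the promoter of the gene without overlap be read beside one with the element. They matched GRCm39 at 1 place each, chr7:140846338-140846537 on the minus strand and chr19:34618089-34618288 on the plus strand.
Irf7: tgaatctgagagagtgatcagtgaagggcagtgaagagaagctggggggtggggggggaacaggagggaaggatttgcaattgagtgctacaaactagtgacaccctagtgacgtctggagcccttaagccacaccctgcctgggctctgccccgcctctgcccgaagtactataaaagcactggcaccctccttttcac
Ifit1: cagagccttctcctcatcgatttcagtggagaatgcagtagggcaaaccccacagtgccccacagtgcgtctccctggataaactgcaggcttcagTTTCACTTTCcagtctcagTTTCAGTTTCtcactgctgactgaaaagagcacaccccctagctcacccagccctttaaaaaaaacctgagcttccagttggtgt
Both capital stretches of Ifit1 read as the element on the opposite strand, and the match describes letters, not a bound factor.

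Antigen presentation moved little. Among 25 genes of MHC class I presentation 0 were changed. B2m, the invariant light chain, had 13600 to 15670 normalised counts on 5% RPS and 14540 to 17300 on 10% RPS (log2 fold change 0.17, adjusted p = 0.616), and the immunoproteasome subunit Psmb10 had 3047 to 4157 and 2851 to 3137 (log2 fold change −0.25, adjusted p = 0.524). The 7 MHC class II genes had a median log2 fold change of 0.13 with 0 past an unadjusted p of 0.05.

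The study tabulates 14 antibacterial and antiviral genes of the PC, a list it chose on these samples, and 0 of them were changed between 10 and 5% RPS. Irf7 and Ido1 were higher at an unadjusted p under 0.05 (3.06% of all genes) and the median log2 fold change was −0.07. Reg3b and Reg3g are secreted lectins that bind bacteria at the epithelial surface. Reg3b had 119300, 120100, 126900, 9431, and 20320 normalised counts on 5% RPS and 27280, 35130, 49480, 75750, and 64120 on 10% RPS (log2 fold change −0.65, SE 0.69, adjusted p = 0.9998). Replicates 1 to 3 on 5% RPS were above, and replicates 4 and 5 below, all 5 libraries on 10% RPS.

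Reg3g showed this same arrangement, with 19640, 20560, 22470, 1503, and 1565 normalised counts on 5% RPS and 4053, 5975, 7999, 8992, and 11750 on 10% RPS (log2 fold change −0.76, SE 0.77). Mal, a protein of apical membrane sorting, had 4300, 5797, 5218, 1455, and 1653 on 5% RPS, where the 10% diet stayed within 2405 to 2777 (log2 fold change −0.53). Retnlb, a goblet cell protein with bactericidal activity, had 715.5, 789.1, 823.9, 239.0, and 189.5 against 236.7 to 532.4. Trim15, a ubiquitin ligase, had 906.7, 2116, 2095, 506.3, and 674.4 against 610.2 to 1093. For Reg3b, Reg3g, Mal, and Retnlb, replicates 1 to 3 on 5% RPS were above all libraries on 10% RPS, and for Trim15 replicates 2 and 3 were.

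The peroxide-producing oxidase Duox2 had 5850, 8077, 9297, 3584, and 3590 normalised counts on 5% RPS and 4546 to 7708 on 10% RPS, with a log2 fold change of 0.01 (SE 0.28). Its maturation factor Duoxa2 had 328.9, 896.1, 973.6, 177.1, and 200.6 against 397.8 to 718.2. Lpo, the peroxidase that uses this peroxide, had 850.7 to 1332 on 5% RPS and 1042 to 1842 on 10% RPS (log2 fold change 0.26). Clca4b, an epithelial secreted protein, had 368.9, 1653, 550.7, 101.4, and 102.5 against 90.0 to 202.4 (log2 fold change −1.91, SE 0.73, adjusted p = 0.665). It shares 24.8% of its windows with other genes, the most with Clca4a, which had 3301 to 6735 on 5% RPS and 3525 to 9593 on 10% RPS. Ido1, which degrades tryptophan, had 287.5 to 548.8 and 387.5 to 763.7 (log2 fold change 0.42, adjusted p = 0.991), and Zbp1, a nucleic acid sensor, 289.7 to 756.9 and 265.7 to 661.9 (log2 fold change −0.03).

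**Figure D4:**
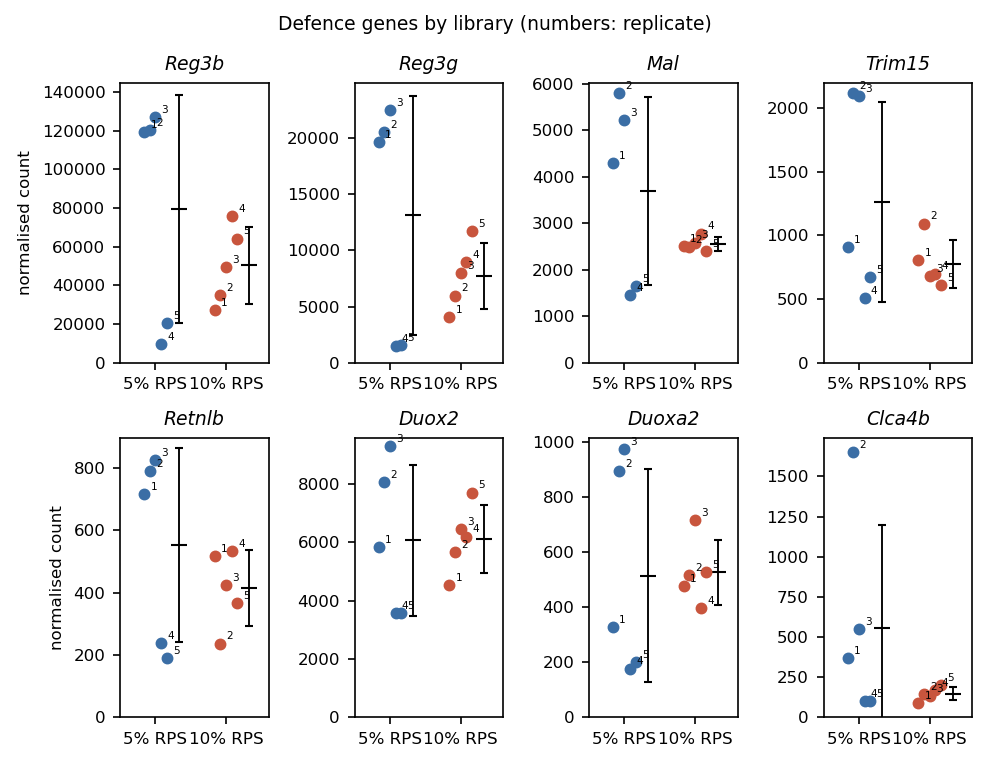
Normalised counts of 8 defence and epithelial genes in each library, with the replicate number beside each point and the mean and SD (n = 5) as a bar. In Reg3b, Reg3g, and Mal, replicates 1 to 3 on 5% RPS lie above and replicates 4 and 5 below all libraries on 10% RPS.

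Among the other antimicrobial genes, Lypd8l, a relative of the mucus-layer protein that binds flagella, had 936.9 to 2107 normalised counts on 5% RPS and 1600 to 4205 on 10% RPS (log2 fold change 0.70, adjusted p = 0.806). The 20 inflammasome and pyroptosis genes had a median log2 fold change of −0.08, and 3 were lower at an unadjusted p under 0.05 (1.92% of all genes), the pore formers Gsdmc3 and Gsdmd and the adaptor Pycard, none of them changed. Pycard had 3416 to 3780 on 5% RPS and 2991 to 3444 on 10% RPS, with 4 of 5 libraries below the range of the 5% diet (log2 fold change −0.17, adjusted p = 0.432).

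Among the genes that handle fermentation products, the monocarboxylate transporter Slc16a1, which carries butyrate into cells, had 3598 to 4677 normalised counts on 5% RPS and 6542, 4035, 5839, 3963, and 5482 on 10% RPS (log2 fold change 0.29, adjusted p = 0.951). It was the 1 member past an unadjusted p of 0.05 among the 10 genes of butyrate uptake and sensing, which had a median of 0.05. Of 24 genes of fatty acid oxidation and ketogenesis 21 had the higher mean on 10% RPS, with a median of 0.07, and 1, Pdk4, the kinase that shuts off pyruvate dehydrogenase, was past that threshold, at 596.7 to 2061 and 698.7 to 3940 (adjusted p = 0.941). The log2 fold change of Pdk4 was 1.08. With the adipocyte covariate it was −0.16, and that of Slc16a1 was −0.09. Of 22 genes of cholesterol synthesis 18 had the lower mean on 10% RPS, with a median of −0.12 and 0 past the threshold. Their summed level was 73076, 64989, 74214.5, 38095, and 40787 on 5% RPS. On 10% RPS it was 53255, 40394, 53633, 76174, and 50528, so the diets overlapped. Mogat2, an acyltransferase of fat absorption, had 168.9 to 242.4 on 5% RPS and 473.1, 252.5, 466.6, 205.0, and 387.4 on 10% RPS (log2 fold change 0.75, adjusted p = 0.211).

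Of the genes of tight junctions and of salt and water transport 0 were changed. Of 16 tight junction genes 3 were higher at an unadjusted p under 0.05 (3.06% of all genes), occludin (Ocln, log2 fold change 0.26, adjusted p = 0.354), Cldn23 (0.40, adjusted p = 0.427), and Cldn4 (0.57, adjusted p = 0.656). Ocln had 2246 to 3063 normalised counts on 5% RPS and 2890 to 3251 on 10% RPS. Atp2b1, a calcium pump of the plasma membrane, had 9768 to 11900 and 11720 to 15170 (log2 fold change 0.29, adjusted p = 0.207), and Hsd11b2, which protects the mineralocorticoid receptor from glucocorticoid, had 5553 to 7661 and 4245 to 6155 (log2 fold change −0.33, adjusted p = 0.665). Slc51a, a subunit of the basolateral bile acid exporter, had 10060 to 14500 and 7336 to 10210 (log2 fold change −0.43, adjusted p = 0.219).

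Markers of other cell types were compared because a segment of gut wall can hold them in varying amounts. Smooth muscle, 18 genes, had a median log2 fold change of 0.07, extracellular matrix 0.15 over 22 genes, endothelium −0.00 over 12, enteroendocrine cells 0.03 over 13, and tuft cells −0.07 over 9, with 0 members past an unadjusted p of 0.05 in any of these lists. The 16 genes of enteric neurons and glia had a median of −0.10, and 13 had the lower mean on 10% RPS. At that threshold 3 were lower and 1 higher (1.92% and 3.06% of all genes). The lower ones included the glial genes S100b and Sox10, and the higher one was the nicotinic receptor subunit Chrnb4. S100b had 164.1 to 248.0 normalised counts on 5% RPS and 121.0 to 187.4 on 10% RPS (log2 fold change −0.33, adjusted p = 0.991), and Chrnb4 had 606.1 to 722.8 and 694.1 to 845.5 (log2 fold change 0.25, adjusted p = 0.366). The cell cycle list, 26 genes, had a median of 0.11 with 0 past the threshold.

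**Figure D5:**
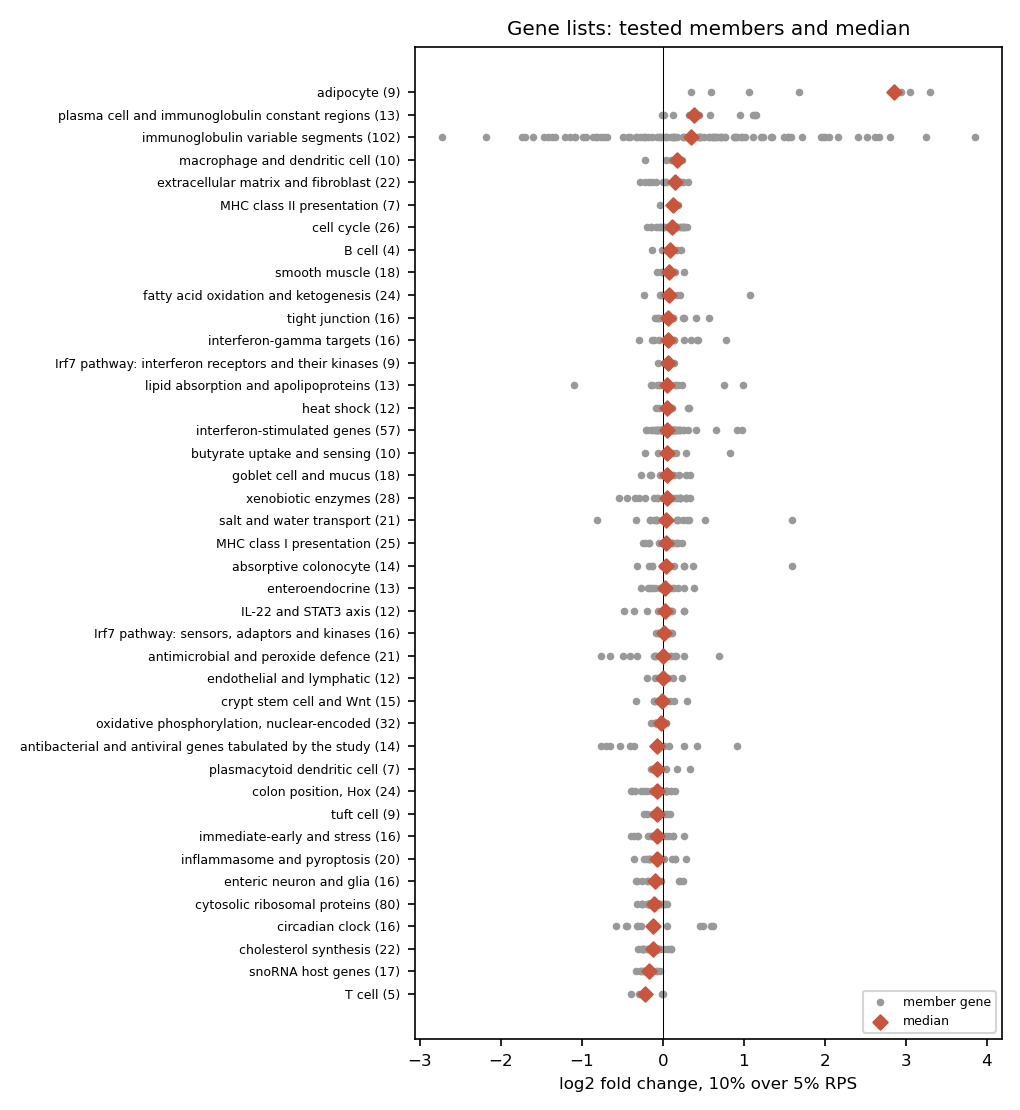
Log2 fold change at 10% over 5% RPS of each tested member (grey) and the median (red diamond) of 41 gene lists with at least 4 tested members, whose number stands in parentheses. The lists of V segments, ribosomal proteins, and snoRNA host genes were drawn up after the values were seen. The adipocyte list has its median at 2.85 and all other lists lie between −0.22 and 0.39.

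Apart from Igkv2-109, whose mean count was below 50, no gene lower on 10% RPS passed the test. Prodh, the enzyme that starts proline breakdown, had 828.7 to 1066 normalised counts on 5% RPS and 622.4 to 812.0 on 10% RPS (log2 fold change −0.39, adjusted p = 0.133), and Eif4ebp3, a repressor of translation initiation, had 266.5 to 358.5 and 171.3 to 250.4 (log2 fold change −0.46, adjusted p = 0.207). Neither overlapped between the diets. For Eif4ebp3, 35.0% of exon bases also belong to Maskbp3. Gas5 and Zfas1, noncoding genes whose introns hold small nucleolar RNAs, had log2 fold changes of −0.23 and −0.28 (adjusted p = 0.219 and 0.256).

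Ribosomal protein genes were counted after Rpl32 was seen among these. Rpl32 had 11190 to 12350 normalised counts on 5% RPS and 9988 to 10750 on 10% RPS (log2 fold change −0.15, SE 0.04, adjusted p = 0.213). Of 80 genes for proteins of the cytosolic ribosome, 31 were lower and 0 higher at an unadjusted p under 0.05 (1.92% and 3.06% of all genes), 76 had the lower mean on 10% RPS, and the median log2 fold change was −0.11. None was changed. Their summed level was 704821 to 808845 on 5% RPS and 684356 to 725060 on 10% RPS, so the diets overlapped. Among genes with a mean of 50 or more, the bin of shortest transcripts (5 bins of equal size), which holds 53 ribosomal protein genes, had a median log2 fold change of −0.03 and the bin of longest transcripts 0.02. Once the trends of each library on transcript length and GC content were removed, the ribosomal median was −0.07 and 14 genes were lower at that threshold.

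Where the mean normalised count was 10 or more, 94 of 12341 (0.762%) had libraries that did not overlap, 54 higher (0.438%) and 40 lower (0.324%) on 10% RPS. Among those higher with the smallest p were Arl13b, a GTPase of the primary cilium, at 357.0 to 398.0 normalised counts on 5% RPS and 431.2 to 471.2 on 10% RPS (log2 fold change 0.30, adjusted p = 0.0699), and Ipmk, an inositol phosphate kinase, at 6047 to 6880 and 6892 to 8518 (log2 fold change 0.28, adjusted p = 0.113). Apol7a, of the apolipoprotein L family, overlapped in replicate 5 on 10% RPS, at 508.0 to 609.6 and 604.1 to 793.5 (log2 fold change 0.39, adjusted p = 0.0646). Among the genes without overlap that were lower were Atad3a, an ATPase of the inner mitochondrial membrane (log2 fold change −0.15, adjusted p = 0.245), and Ciapin1, of iron-sulfur assembly (−0.18, adjusted p = 0.354).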

How the data were processed

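RNA from the PC of 20 mice was sequenced from stranded mRNA libraries, and the 10 libraries on 5 and 10% RPS were compared. The authors trimmed bases below their quality limit and counted reads per Ensembl gene on GRCm39 in CLC Genomics Workbench, and deposited raw counts of 12701 genes. The use of strand and of reads with several matches is not given in the sources used here. Symbols came from GENCODE M39 (12682 genes matched). Each library is labelled as a separate sample of its diet, and p-values measure the spread between these.

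DESeq2 (version 1.42.0, R version 4.3.3) was fitted to the 10 libraries with diet as the term, with Wald tests and Benjamini-Hochberg adjustment over all tested genes. All adjusted p values are from DESeq2 unless another tool is named. edgeR (version 4.0.16) was the alternative, and counting limits cover counting error only. Two-sided and one-sided exact permutation tests used whole libraries. Other alternatives were TMM factors, a filter on low counts, no independent or Cook filtering, other fold thresholds, all 20 libraries, smooth muscle or adipocyte level as a covariate, removal of length and GC trends, and omission of libraries. Windows of 50 bases, the read length, were compared among GENCODE transcripts. Replicates were numbered in accession order within a diet, which pairs no libraries, and the numbers in the labels differ between diets. The members and gene lists were chosen with earlier results of these data known. Named were changed genes, the 12 smallest p in each direction with a mean of 50 or more, the 14 genes tabulated by the study, and members of each list with the smallest p (4 in each direction for interferon-stimulated genes) or without overlap, and others named as chosen later. The scripts were tested on simulated data. Some genes that met the naming rule are not reported here.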

Additional observations from a re-analysis of the deposited data

Results flagged for a closer look

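For the 126 named genes, each diet's group of 5 libraries was examined, and 20 groups held a library set apart from the other 4 by a gap of over 0.71 of the range. For genes chosen without regard to their values, chance gives about 1 in 20 groups if the values follow a normal distribution. Whether that rate holds for normalised counts was not tested. Some of these genes were named after their values were seen and many move together in 1 library, so the number of groups is a description only. Replicate 1 on 10% RPS was the separate library in 11 of them. These were the normalised counts of Cfd (6047), Car3 (7714), Plin1 (1057), Cyp2e1 (1685), Adipoq (2108), Fabp4 (9524), Scd1 (20290), Adrb3 (420.4), and Thrsp (711.4), all genes of adipose tissue, and of Ifi27l2a (880.4) and the transcription factor Irf3 (2705). Replicate 4 on 10% RPS was apart for the V segments Igkv16-104 (634.4) and Ighv1-81 (280.5) and for Hlf (596.7), a factor that follows the circadian clock. Replicate 2 on 10% RPS was apart for Atad3a (2032). On 5% RPS, replicate 4 was apart for Arl13b (398.0) and Gzma (19.8, the lowest of its group), replicate 2 for Clca4b (1653) and Id3 (3129, the lowest), and replicate 5 for the peptide hormone Pyy (1476).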

How the results depend on the processing

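The count of changed genes moved from 4 to 0 with edgeR, 1 with all 20 libraries, 2 with the adipocyte covariate, 7 without a fold threshold, 8 with a smooth muscle covariate, and 17 without replicates 4 and 5 on 10% RPS, whose numbers in the labels do not follow those of the other 8. Left out 1 at a time, the libraries gave 2 to 15 genes, the most without replicate 4 on 10% RPS. The adipocyte covariate and the removal of length and GC trends were added after seeing the data. Log2 fold changes near 0 reversed for H2-DMb1 (0.017) and Reg3a (0.0196) without the length and GC trends and for Duox2 (−0.13) and Lmod1 (0.048) without replicates 4 and 5 on 10% RPS. With the adipocyte covariate larger ones reversed as well. Among these were Pdk4 (1.08 to −0.16), Reg3g (−0.76 to 0.057), Reg3b (−0.65 to 0.12), and Slc16a1 (0.29 to −0.093). With each library omitted, log2 fold changes crossed 0 for H2-DMb1 (−0.11 to 0.058), Duox2 (−0.13 to 0.21), Reg3a (−0.21 to 0.21), Ifit1 (−0.015 to 0.165), Zbp1 (−0.18 to 0.15), Xbp1 (−0.060 to 0.017), Spib (−0.27 to 0.0064), Cela1 (−0.014 to 0.075), and Duoxa2 (−0.19 to 0.40). The cause was not tested. No paired analysis was possible because replicates were numbered here in accession order and the numbers in the labels differ between diets. Igkv2-109 rests on 3 to 10 reads per library on 10% RPS.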

Other observations

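The 5 libraries on 10% RPS held a similar order for several genes, noticed after the values were seen. For Irf7, Mogat2, Slc16a1, and the median centred log2 level of the adipocyte list alike, replicate 1 was the highest, then replicate 3, and then replicate 5, with replicates 2 and 4 below these. By the summed adipocyte level replicate 2 (6974) was above replicate 5 (6624). For Slc16a1 replicates 2 and 4 had 4035 and 3963 normalised counts, within the range on 5% RPS. The tight junction gene Cldn4 had 2350, 1883, and 1856 in replicates 1, 3, and 5, and 1081 and 1126 in replicates 2 and 4. The shared order was not tested.

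Heat shock genes were high in 1 library of each diet. Hspa1a had 1837 normalised counts in replicate 4 on 5% RPS and 3255 in replicate 1 on 10% RPS, with 109.1 to 381.8 in the other 8 libraries, and Hspa1b had 4786 and 5801, with 305.0 to 1094 in the others. The water channel Aqp8 had 3159 in replicate 1 on 10% RPS and 138.1 to 867.2 in the other 9.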
